A study of Brassica napus with 6 samples.

Results

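The data compare the seed transcriptome of droughted oilseed rape (Brassica napus) with that of control plants 50 days after flowering. The samples were taken by their labels, 1 drought and 1 control library out of 6 in the series. The drought plants had been under stress since flowering began, and the control plants were not stressed. The other 4 libraries came from seeds of drought and control plants at days 30 and 40. All plants grew under a rain shelter. The growth label speaks of 6 lines and does not say which line or how many plants stand behind a library, so a difference between lines or plants and an effect of drought cannot be told apart. With 1 library per treatment and day, the values describe these libraries, no difference has a replicate check, and no p-value is given.

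Oilseed rape is an allotetraploid: it carries the A subgenome that it shares with turnip and the C subgenome that it shares with cabbage, so most genes have a counterpart in the other subgenome. In the weeks covered here a Brassica seed passes from embryo growth to the deposition of storage protein and oil, and then to drying and dormancy. Transcript levels of many genes follow that course, and a drought difference at a late stage can therefore fall on genes that move with seed age anyway or on genes that stay level in a control seed. The control libraries of days 30, 40 and 50 were used to separate these kinds of gene.

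The drought library of day 50 held 15024986 counted reads on 58555 genes and its control 14918127 reads on 58544 genes. Over all 6 libraries the totals ran from 10314859 to 16177156. The count table lists 72611 genes, of which 32976 have an ID of the A subgenome, 35737 an ID of the C subgenome, 3673 an ID of a new gene model and 225 an unplaced ID. None of the IDs is paired with a gene name in the tables used here, so no role is given for any gene, seed identity was not checked against marker genes, and 4 IDs are named. Levels are given in CPM, a gene's reads as a part of the library total after scaling by the trimmed mean of M values. A gene was compared when its mean over both day 50 libraries was at least 5 CPM. This kept 26632 genes, whereas 35772 had reads below that minimum and 10207 had no read at day 50. A gene of 5 CPM had about 64 reads in drought and 65 in control, and the counting error of such a gene alone gives a 95% interval of 0.695 to 1.43 around equal levels. Intervals here cover counting error and leave out differences between plants.

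Drought seeds at day 50 differed from control seeds in both directions to a like extent. At least 2-fold higher levels in drought were found for 2633 genes (9.89% of those compared), and at least 2-fold lower levels for 2574 (9.67%), together 19.6%. A 4-fold limit left 471 genes higher (1.77%) and 469 lower (1.76%). At 8-fold or more, 147 genes were higher (0.552%) and 81 lower (0.304%). Of the genes 2-fold apart, 50.6% were thus higher in drought, and this share was 40.4% (2246 higher and 3308 lower) when genes were chosen by a mean of 5 CPM over all 6 libraries. In bulk seeds, fewer cells of a type and less RNA per cell cannot be told apart.

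Each gene was placed in a class by its control levels on the 3 days. Genes whose highest control day was less than 1.5-fold over the lowest are called flat, and genes from 1.5 to under 2-fold are called between. Genes that moved at least 2-fold were split into rising (day 50 at least 2-fold over day 30), falling (at least 2-fold under day 30) and transient (neither). Of the 26632 genes compared, 12703 were flat (47.7%), 6821 between, 4547 rising (17.1%), 1549 falling (5.82%) and 1012 transient. Most falling genes of the table were not compared: of 16176, 9714 had reads below the minimum at day 50 and 4913 had none. Of the 4102 that passed the same minimum at day 30, 2568 no longer passed it at day 50. The control library of day 50 enters both the class and the drought ratio. A chance low value there raises the ratio and moves a gene towards the falling class, and a chance high value does the reverse.

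Genes that rise with seed age in control seeds were mostly higher in drought where they differed, and genes that fall with age were mostly lower. Of the 4547 rising genes, 992 (21.8%) stood at least 2-fold above control in the drought library and 497 (10.9%) at least 2-fold below it. Of the 1549 falling genes, 206 were higher (13.3%) and 462 lower (29.8%). The rising lean was narrower among the 3482 rising genes that also passed the same minimum at day 40. Of these, 557 were higher and 445 lower at day 50. Among the 1470 falling genes that passed at day 40 as well, 144 were higher and 459 lower at day 50. The median log2 ratio of drought to control was 0.23 in the rising class and -0.36 in the falling class, against 0.05 over all genes compared. Of the 1012 transient genes, 175 were higher and 155 lower, with a median of 0.12. Among the 788 transient genes that passed at day 40 as well, 88 were higher and 148 lower at day 50. With no filter beyond 1 read both leans turned round, to 2261 rising genes higher and 3890 lower, and to 3826 falling genes higher and 2812 lower, and every gene so added lies under 5 CPM. At 8-fold or more the rising class had 93 genes higher and 35 lower, and the falling class 28 higher and 30 lower.

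Flat genes differed less often, yet they made up a large part of all genes that differed because the class is large. Of the 12703 flat genes, 662 (5.21%) passed 2-fold upwards in drought and 766 (6.03%) downwards. This balance depended on the minimum, which a high drought level alone can satisfy. Among the 12164 flat genes that also passed at day 40, 536 were higher and 766 lower at day 50. With genes chosen by their mean over all 6 libraries, 591 flat genes were higher and 889 lower. The 1428 flat genes apart compare with 2487 in the 3 age-moving classes together, of which 1373 were higher and 1114 lower out of 7108. The middle spread of the log2 ratio was narrower in flat genes, with quartiles at -0.35 and 0.43, than in rising genes, with quartiles at -0.44 and 0.89, or in falling genes, with quartiles at -1.14 and 0.43. Few flat genes reached large folds: 32 were at least 4-fold higher and 86 at least 4-fold lower, and 6 and 3 were at least 8-fold higher and lower. The genes between flat and moving lay in the middle, with 598 of 6821 higher (8.77%) and 694 lower (10.2%).

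**Figure D1:**
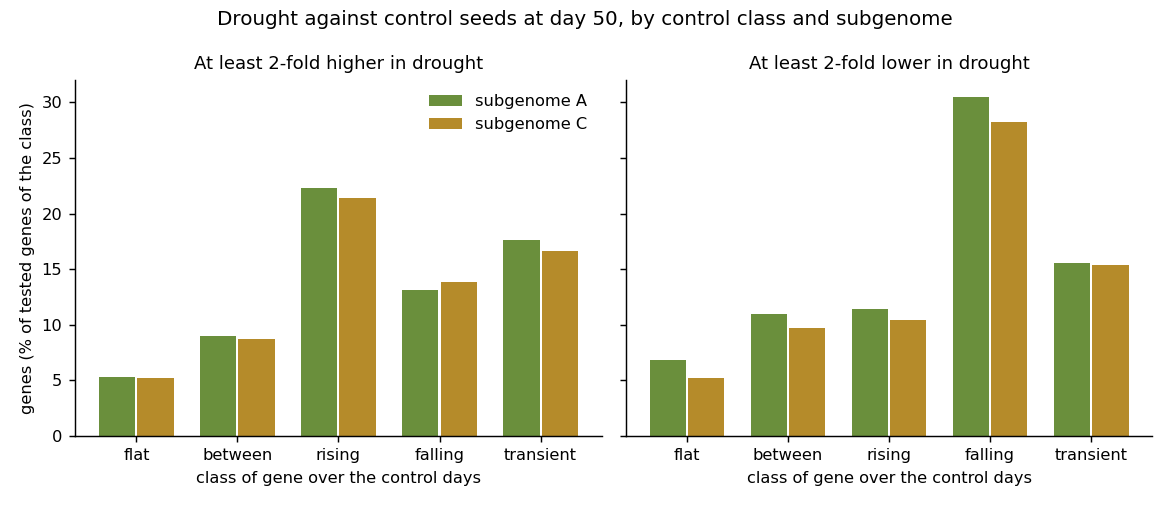
Share of compared genes that were at least 2-fold higher (left) or lower (right) in the drought library than in the control library of day 50, in percent of the class, by control class and by subgenome (green bars A, ochre bars C). The rising class stands highest on the left, at 22.3% for A and 21.4% for C genes, and the falling class on the right, at 30.5% and 28.3%.

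The lean of the falling class depended on the last control step. When the class was taken from control days 30 and 40 alone, which share no library with the day 50 ratio, 2948 genes were rising, of which 683 were higher in drought (23.2%) and 421 lower (14.3%). The 725 genes falling by that measure had 171 higher (23.6%) and 185 lower (25.5%), with a median log2 ratio of 0.08 against -0.36 before. Flat genes by that measure numbered 18665, with 1310 higher (7.02%) and 1437 lower (7.70%).

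Taking both control steps together shows where the leans lay. Genes that went up at least 2-fold in control at each step had a median log2 drought ratio of 0.61, and of 1170 such genes 415 were higher in drought and 86 lower. Genes that went up only from day 30 to day 40, 1638 in all, had a median of -0.13, with 226 higher and 314 lower. Genes level at first and up from day 40 to day 50 had a median of 0.47, with 271 of 971 higher and 58 lower. On the falling side, the 93 genes down at each step had a median of -1.30, with 18 higher and 53 lower. The 588 genes level at first and down in the second step had a median of -0.49, with 53 higher and 181 lower, whereas the 496 genes down only in the first step had a median of -0.05, with 87 higher and 123 lower. For genes that kept moving one way, or began to move after day 40, the drought library of day 50 thus lay mostly further along the control change, and for genes level after day 40 it lay to both sides. The small sets that turned did not follow the second step alike: of 136 genes down and then up, 66 were higher in drought and 9 lower, and of 140 genes up and then down, 42 were higher and 21 lower. The second step shares the control library of day 50 with the ratio.

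**Figure D2:**
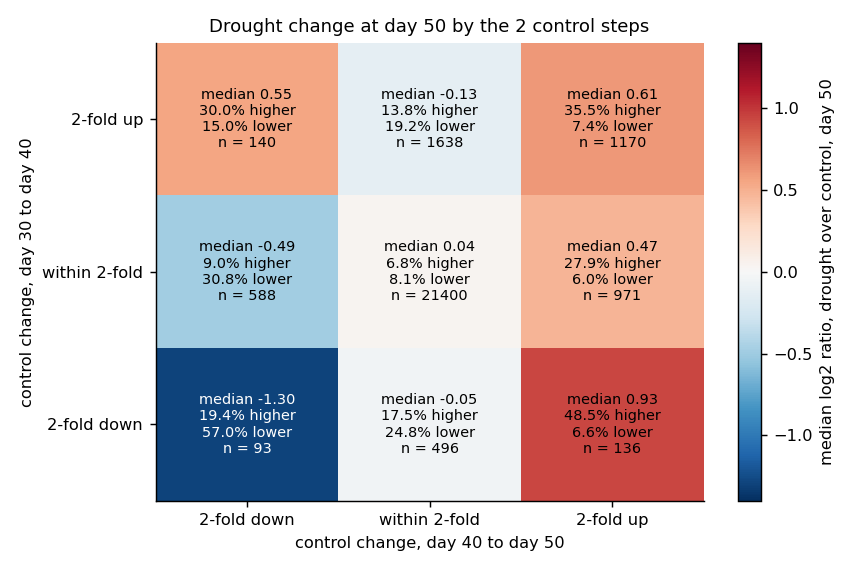
Median log2 ratio of drought to control at day 50 (colour and first line of each cell) for genes grouped by their control change from day 30 to day 40 (rows) and from day 40 to day 50 (columns), with the share of genes at least 2-fold higher and lower and the number of genes. The cells of genes moving the same way at each step stand at 0.61 (up) and -1.30 (down), and the central cell of 21400 genes at 0.04.

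Among genes that passed the day 50 minimum, the median drought difference grew with the size of the control change. That change shares the control library of day 50 with the drought ratio. A high drought level alone can also carry a gene over the minimum, and the part of this in the values below was not tested. Genes that rose over 16-fold in control between days 30 and 50 numbered 766 and had a median log2 drought ratio of 0.83, with 336 higher in drought (43.9%) and 81 lower (10.6%). For a 4 to 16-fold control rise (1315 genes) the median was 0.30, and for a 2 to 4-fold rise (2466 genes) it was 0.09. Genes with a 4 to 16-fold control fall numbered 258 and had a median of -0.66, with 44 higher in drought and 104 lower, and the 1273 genes with a 2 to 4-fold fall had a median of -0.30. A further 18 genes whose control fall was over 16-fold passed the minimum, of which 5 were higher in drought and 11 lower. The 20536 genes within 2-fold between those control days had a median of 0.04.

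Rising genes that were higher in drought, falling genes that were lower, and flat genes that differed lie beyond the control range by construction, apart from the level at day 40. For the other directions the place was free. Of the 497 rising genes that were lower in drought, 345 lay inside the range of the control days and 152 below all of them. Among the 206 falling genes that were higher, 95 lay inside the control range and 111 above it.

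At day 40, which shares no library with day 50, the classes had behaved differently. Day 40 ratios also fell with gene length, and rising genes were shorter than flat ones (medians of 1542 and 1772 bases). Over all 26587 genes that passed the minimum on that day, 6.04% were at least 2-fold higher in drought, 4.06% were lower, and 10.1% were apart in either direction. Of the 992 rising genes higher in drought at day 50, 580 were already at least 2-fold higher at day 40 (58.5%), 17 were at least 2-fold lower, and their median log2 ratio at day 40 was 1.23. Among those that also passed the minimum at day 40, 334 of 557 were higher there (59.96%), against 542 of 2480 rising genes that were within 2-fold at day 50 (21.9%). The 497 rising genes lower at day 50 had a median of 0.05 at day 40, where 28 were at least 2-fold lower and 44 at least 2-fold higher. Falling genes lower at day 50 had a median of -0.52 at day 40, and 133 of the 462 were at least 2-fold lower there (28.8%). Falling genes higher at day 50 had a median of 0.05 at day 40, where 22 of the 206 were at least 2-fold higher and 19 at least 2-fold lower.

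Most flat genes that differed 2-fold at day 50 had smaller drought differences at day 40. They were chosen by their day 50 ratio, so smaller ratios on other days follow in part from that choice. The 662 flat genes higher at day 50 had a median log2 ratio of 0.38 at day 40 and 0.07 at day 30, and 67 (10.1%) had already passed 2-fold at day 40. Of these genes, 480 lay on the higher side of control at day 40 by any amount (72.5%). The 766 flat genes lower at day 50 had medians of -0.23 at day 40 and -0.01 at day 30, with 52 (6.79%) already 2-fold lower at day 40 and 535 on the lower side by any amount (69.8%). By comparison, 164 of the 11275 flat genes within 2-fold at day 50 stood 2-fold or more above control at day 40 (1.45%) and 224 as far below it. At day 30, where 0.526% of all genes were higher and 1.21% lower, 4 of the 662 and 2 of the 766 were at least 2-fold apart in the same direction.

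**Figure D3:**
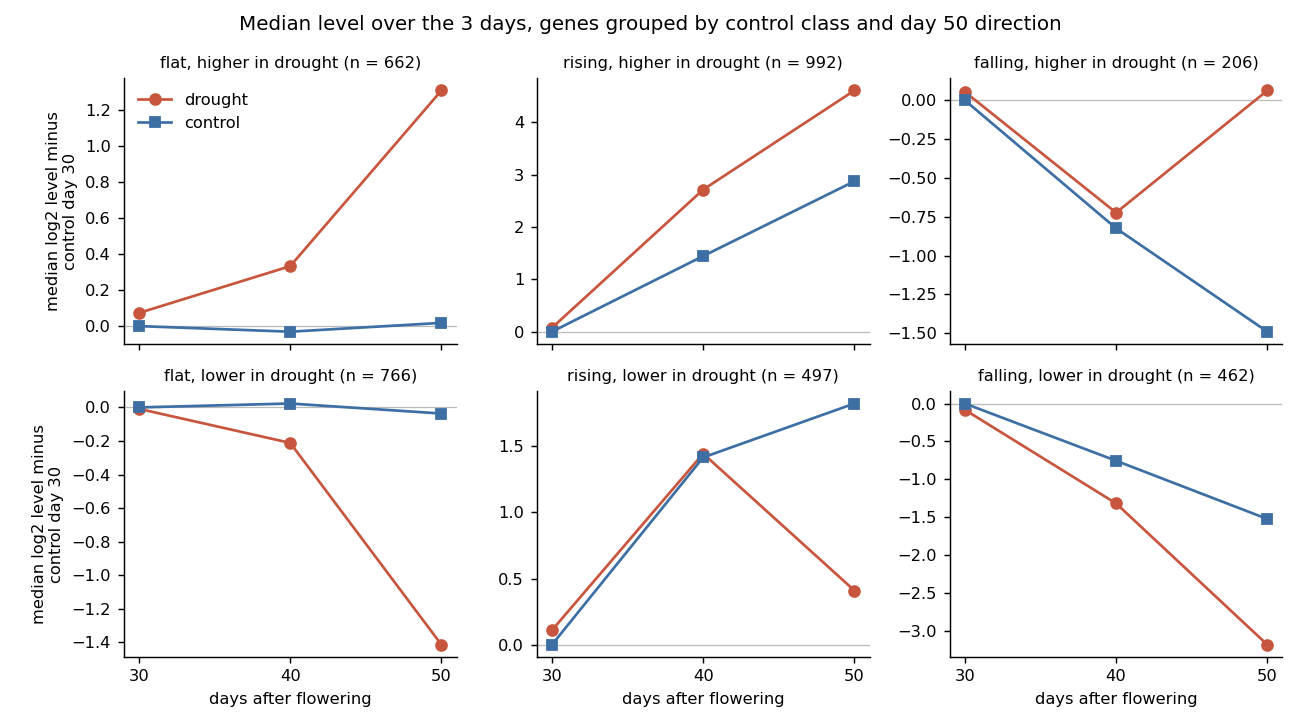
Median over genes of the log2 level minus that of control day 30, at 30, 40 and 50 days after flowering, in drought (red circles) and control (blue squares), for flat, rising and falling genes that were at least 2-fold higher (top) or lower (bottom) in drought at day 50; the vertical axes differ between panels. The gap at day 50 is set by the choice of genes. At day 40 it was already open in rising genes that were higher (2.71 in drought against 1.45 in control) and nearly closed in rising genes that were lower (1.44 against 1.42).

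Set beside the other days, day 50 had the highest share of flat genes apart. At day 30, 27 of 12677 flat genes that passed the same minimum on that day differed 2-fold or more, 15 higher and 12 lower. At day 40 there were 505 of 12688, with 270 higher and 235 lower, and at day 50 there were 1428 of 12703, or 11.2%. Over all classes the share was 1.74% at day 30 and 10.1% at day 40. Of 3597 rising genes that passed at day 40, 28.5% were apart, with 935 higher and 91 lower. Of the 4547 that passed at day 50, 32.7% were apart, with 992 higher and 497 lower. These sets of genes differ between days. Among the 3482 rising genes that passed on both days, 915 were higher and 81 lower at day 40. At day 50, 557 of them were higher and 445 lower. About as many were thus apart on each day, and the lean towards higher levels was narrower at day 50. The falling class was apart in 21.9% of 2453 genes at day 40, with 102 higher and 436 lower, and in 43.1% of 1549 at day 50. Among the 1470 falling genes that passed on both days, 47 were higher and 220 lower at day 40. At day 50, 144 of them were higher and 459 lower. No test was made between days, because a treatment had a single library on each.

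Levels were compared between genes per kilobase of the deposited gene length. In flat genes the direction varied with level, and so did gene length, whose part was not tested. Of the 3009 flat genes under 5 CPM per kb, 137 were higher in drought (4.55%) and 206 lower (6.85%). Of the 257 between 100 and 1000 CPM per kb, 34 were higher (13.2%) and 16 lower (6.23%), with a median log2 ratio of 0.54. The median length was 2399 bases in the first of these sets and 844 in the second. Rising genes showed the same order: 17.2% were higher and 13.6% lower under 5 CPM per kb, and 35.7% were higher and 6.40% lower at 100 to 1000 CPM per kb. In the falling class the share that was lower in drought did not change steadily with level. It was 29.6% under 5 CPM per kb, 28.2% at 5 to 20 and 34.3% at 20 to 100.

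**Figure D4:**
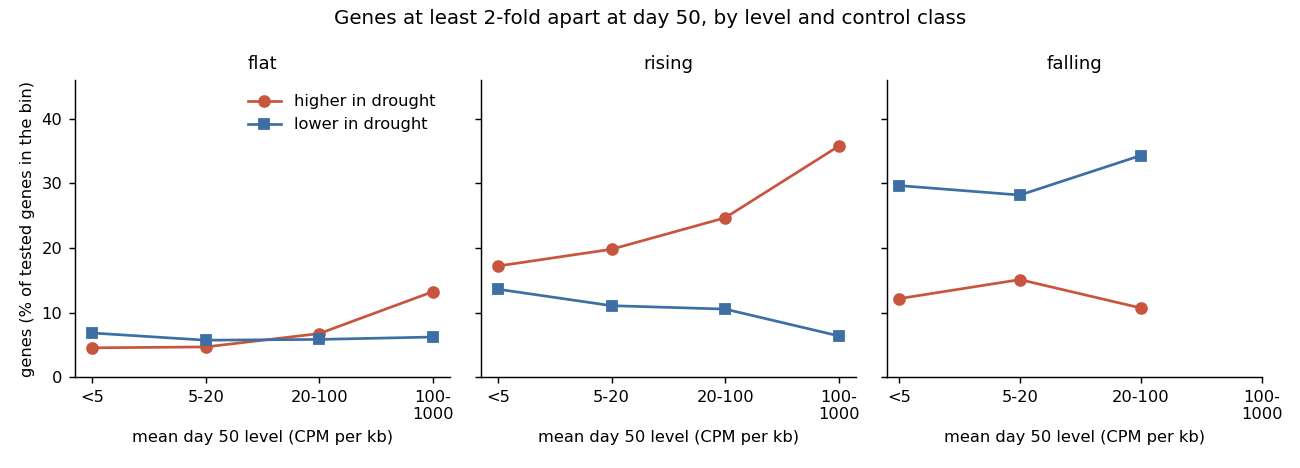
Share of compared genes at least 2-fold higher (red circles) or lower (blue squares) in drought at day 50, in percent, by the mean level over both day 50 libraries in CPM per kilobase, for flat, rising and falling genes; bins of fewer than 20 genes, and the 56 rising genes of at least 1000 CPM per kb, are not drawn. In rising genes the share that was higher runs from 17.2% in the lowest bin to 35.7% in the highest drawn, and in flat genes from 4.55% to 13.2%.

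The most abundant transcripts of day 50 lay close to their control levels in the median, unlike at day 40. Of the 100 genes with the highest mean CPM over both day 50 libraries, 94 belonged to the rising class. Their median log2 ratio was -0.04 at day 50, with 24 higher in drought and 9 lower, although it was 1.35 at day 40, with 79 higher and 2 lower. All of the 10 most abundant were rising genes, 9 of them lay below control at day 50 without reaching 2-fold, and their median log2 ratio was -0.30, against 1.29 at day 40. Over the 1000 most abundant genes, 501 of them rising, 208 were higher and 114 lower, with a median of 0.32. The 10 most abundant genes held 14.4% of the reads of the drought library and 19.4% of those of the control library. The 56 rising genes of at least 1000 CPM per kb had 7 higher and 3 lower and a median log2 ratio of -0.13, against a median of 0.68 in the 375 rising genes of 100 to 1000 CPM per kb.

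Summed over the compared genes of the class, rising genes held nearly equal parts of both libraries at day 50, 49.4% of reads in drought and 48.8% in control. The 992 rising genes that were higher in drought held 11.3% of the drought reads and 3.40% of the control reads. Those within 2-fold held 37.0% and 42.4%, and the 497 that were lower held 1.03% and 3.02%. Flat genes held 28.3% of reads in drought and 27.4% in control, and falling genes 1.99% and 2.81%. At day 40 the same rising genes had held 50.8% of the reads in drought and 30.9% in control. Exact binomial 95% intervals of these class shares are no wider than 0.0305 percentage points on a side.

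Both subgenomes took part in every class and direction. Of 12532 A genes compared, 1277 (10.2%) were higher in drought by the 2-fold rule and 1324 (10.6%) lower. Of 13187 C genes, 1269 were higher (9.62%) and 1160 lower (8.80%). The balance within a subgenome turned under other settings: C genes were 1150 higher and 1268 lower with the length trend removed and 1089 and 1479 with the 6-library mean, and A genes were 1332 and 1273 with relative log expression factors. A genes thus differed in 20.8% of cases and C genes in 18.4%, and the difference lay mostly in the genes that were lower in drought. In flat genes 313 of 5866 A genes were higher (5.34%) and 402 lower (6.85%), while 340 of 6484 C genes were higher (5.24%) and 338 lower (5.21%). For rising genes the shares were 22.3% higher and 11.4% lower in A, and 21.4% and 10.4% in C. Falling genes were higher in 13.2% and lower in 30.5% of A genes, and in 13.9% and 28.3% of C genes. The make-up of the subgenomes differed slightly: flat genes made up 46.8% of A and 49.2% of C genes, and rising and falling genes 17.3% and 6.43% of A against 16.3% and 5.31% of C. Reads that match an A gene and its near-identical C copy may have been split between them, and how such reads were counted is not given in the sources used here. Differences between the subgenomes were not tested, since genes are not replicates.

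Over all genes of the table, the part of A and C reads that came from A genes was lower in drought, 50.3% against 52.1% in control at day 50. The gap lay mainly in the rising class, where A genes held 52.3% of A and C reads in drought and 55.3% in control. Shares of reads weigh abundant genes most. The 10 most abundant genes, all rising, 4 of A and 6 of C, held 14.4% of drought and 19.4% of control reads. Gene by gene, the median log2 ratio of rising genes was 0.21 in A and 0.26 in C. The part of single abundant genes in the gap was not tested. Flat genes showed 47.2% in drought and 47.8% in control. The counting intervals of these shares are narrower than the gaps, and they leave out differences between plants.

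By the chromosome named in the ID, the share of genes higher in drought ran from 9.43% on A06 to 11.1% on A03 among the 10 A chromosomes, and from 8.43% on C08 to 11.5% on C09 among the 9 C chromosomes. Genes lower in drought made up 8.91% on A10 to 13.2% on A04, and 7.66% on C09 to 10.3% on C02. Every chromosome held genes of both directions, and the chromosome medians of the log2 ratio lay between 0.01 and 0.11.

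By a rule of size, 4 genes are described singly, each with the largest log2 difference of its kind among genes that averaged 20 CPM or more over both libraries of day 50: the largest rise and fall among flat genes and among age-moving genes. All 4 carry IDs of the C subgenome, which has 13187 of the 26632 genes compared. At 8-fold or more, 64 A and 74 C genes were higher in drought, and 40 A and 34 C genes were lower. BnaC07g45360D, a flat gene of chromosome C07 and 1443 bases, stood at 9.50, 16.7 and 144 CPM in drought seeds at days 30, 40 and 50, against 8.22, 9.44 and 10.1 CPM in control seeds. Drought of day 50 stands apart from the other 5 libraries, which lie between 8.22 and 16.7 CPM. The gap from the control libraries is set by the choice of the gene, and that from the earlier drought libraries is not. BnaC07g45360D had 1835 reads in drought and 130 in control at day 50, a 14.3-fold higher level in drought with a counting interval of 12.0 to 17.2.

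BnaC08g22640D, a flat gene of chromosome C08 and 1163 bases, stood at 86.0, 121 and 14.7 CPM in drought, against 99.8, 140 and 111 CPM in control. The drought library of day 50 was again the one apart, this time at the low end, and its gap from control is again set by the choice. With 188 reads in drought and 1432 in control at day 50, the log2 ratio of BnaC08g22640D was -2.91, and control was 7.52-fold higher (counting interval 6.45 to 8.80). At day 40 the log2 ratio had been -0.21.

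The age-moving genes with the largest differences both belonged to the falling class, and the drought library lay above control for one and below it for the other. BnaC09g45170D, on chromosome C09, stood at 3.20, 2.68 and 68.6 CPM in drought, against 4.59, 1.09 and 1.47 CPM in control. Its level in drought at day 50 exceeded every other library, with 876 reads against 19 in control, a 46.7-fold higher level with a counting interval of 29.7 to 78.0. BnaCnng30140D, a C gene with no chromosome in its ID, stood at 980.3, 658 and 7.36 CPM in drought, against 839, 1249 and 242 CPM in control. Both treatments were lowest at day 50, drought much further down. With 94 reads in drought and 3126 in control, control was 32.8-fold higher at day 50 (counting interval 26.7 to 40.7), and the log2 ratio was -5.03 after -0.92 at day 40.

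**Figure D5:**
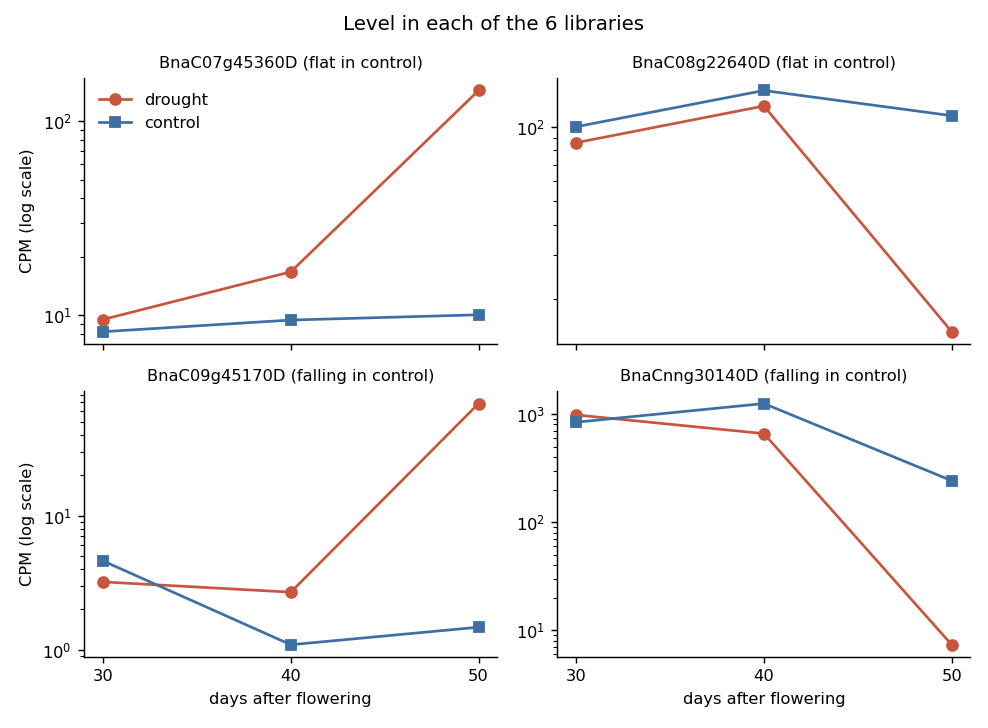
Level in CPM (log axis) of the 4 named genes in each library at 30, 40 and 50 days after flowering, drought as red circles and control as blue squares, 1 library per point. In each panel the treatments lie nearest to each other at day 30 or day 40 and farthest apart at day 50, where drought stands at 144, 14.7, 68.6 and 7.36 CPM against 10.1, 111, 1.47 and 242 CPM in control. The gap at day 50 is set by the choice of genes.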

How the data were processed

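Seed RNA was extracted with Trizol and sequenced as paired reads on an Illumina HiSeq instrument, per the labels' protocols. The authors deposited raw counts per gene with a gene length, and 1 file of FPKM per library. Per the submitters' processing notes, Cufflinks was among the tools, and neither its version nor its role is stated. The FPKM files carry no unit in their headers, and the deposited values were read as FPKM from their size and that tool. Not given in the sources used here are the aligner, the counting tool, the build and whether strand was used. Counts were scaled with edgeR 4.0.16 in R 4.3.3 by the trimmed mean of M values over 49832 genes kept by filterByExpr. Log2 ratios used a prior of 0.5 reads per library. No model was fitted, since each group had 1 library. Intervals are exact (Clopper-Pearson) at 95%. The 4 named genes had at least 50 reads in the higher library. Of 72611 IDs, 0 were found in RefSeq's table for assembly Da-Ae, so the gene lists drawn up for named genes and tissue markers could not be used. The scripts were tested on simulated data. The comparison, classes and lists were chosen with earlier results of these data known. Alternatives were other scaling factors, library totals, FPKM with a pseudocount of 0.1, other filters, a prior of 5 reads, removal of the length trend and other class rules.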

Additional observations from a re-analysis of the deposited data

How the results depend on the processing

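Of 92 recomputed counts, 71 stayed within 1.5 times the reported count, and the log2 ratios of the 4 named genes stayed within their counting intervals in all 20 recomputations. With other size factors (relative log expression), FPKM, a prior of 5 reads or the length trend removed, no count moved further. Of the rising genes apart, 66.6% were higher in drought as reported and from 62.0% (6-library mean) to 69.95% (library totals) under the other scalings, FPKM, the prior, the length trend and that mean. The lean was narrower among the 3482 rising genes that passed the minimum at both day 40 and day 50, with 557 higher and 445 lower. Of the falling genes apart, 30.8% were higher, with a range from 23.6% (6-library mean) to 32.5% (library totals). The split of all genes varied: 50.6% of genes apart were higher as reported and 40.4% with genes chosen by their mean over 6 libraries, where 2246 were higher and 3308 lower. That filter gave 949 falling genes lower in drought. Library totals alone gave 305 rising genes lower, 390 falling genes higher and 810 falling genes lower, because 4420 genes then counted as falling and 2627 as rising. A flat limit of 2-fold gave 1260 flat genes higher and 1460 lower. Classes from control days 30 and 40 gave 1310 flat genes higher, 1437 flat genes lower and 185 falling genes lower. With no filter beyond 1 read, 11589 genes were higher and 12073 lower in drought, with 2722 and 1791 among flat, 2261 and 3890 among rising and 3826 and 2812 among falling genes, so the leans of the rising and falling classes turned round, and with 5279 and 5622 among A and 5695 and 5675 among C genes. All genes added there lie under 5 CPM. No paired analysis was possible because each group had 1 library. Depth limits single genes near 5 CPM to ratios beyond about 0.695 to 1.43.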

Other observations

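Shorter genes were more often apart at day 50. Of the 280 genes of up to 400 bases that were compared, 17.9% passed 2-fold upwards in drought and 11.1% downwards, with a median log2 ratio of 0.32, whereas of the 6239 genes over 2500 bases 6.83% were higher and 6.65% lower, with a median of 0.03. At day 40 the trend was steeper, with medians of 0.79 and -0.27 for these lengths. Rising and falling genes were shorter than flat genes, with median lengths of 1542 and 1428 against 1772 bases. The part of length in the class differences was not tested beyond the removal of the length trend.

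Genes with neighbouring ID numbers on a chromosome moved together little more often than genes at large. Of 2317 genes higher in drought that had a next compared gene on their chromosome, 250 were followed by another that was higher (10.8%, against 9.93% of all genes with a chromosome). For lower genes it was 252 of 2261 (11.1% against 9.69%). The longest run in either direction was 4 genes.

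New gene models resembled the rest in how often they differed, with 86 of 865 higher in drought (9.94%) and 85 lower (9.83%), though 25.3% of them were rising genes in control. Among new models that were flat, 9 of 333 were higher and 25 lower.

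Of the 62404 genes with a read at day 50, 58555 had one in drought and 58544 in control. Few of them had at least 50 reads in 1 of these libraries and none in the other. With at least 50 reads in drought and none in control there were 19 genes, 11 of subgenome A and 8 of C, the highest with 359 reads, at least 121-fold higher in drought against a floor of 3 reads in the control library. The reverse, with at least 50 reads in control and none in drought, held for 3 genes, all of subgenome A, with up to 77 reads.

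Across the 24136 genes that passed the minimum at both days, the Pearson correlation between the drought log2 ratios of day 40 and of day 50 was 0.327 in flat, 0.479 in rising and 0.324 in falling genes, and the genes of a library share its depth and scaling. In the rising class 334 of these genes were 2-fold or more above control on both days, which is 36.5% of those higher at day 40 and 59.96% of those higher at day 50.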
